A study of Vernicia fordii and Jatropha curcas with 4 samples.

Results

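The developing seed of Jatropha curcas (physic nut) was compared with that of Vernicia fordii (tung tree) in 1 pair of RNA-seq libraries, the ones numbered 7 in the deposited tables. The comparison holds 2 of the study's 4 libraries, 1 per species. Its units are Arabidopsis locus codes of the TAIR10 release that the authors assigned to their assembled contigs. Such loci numbered 13319 for Jatropha and 13333 for Vernicia. Of 15237 loci in either table, 11415 were in both, and 8460 of these had at least 10 RPKM in Jatropha library 7 or Vernicia library 7 and were kept. RPKM corrects read numbers for contig length and library size, so levels of different genes can be set side by side. Of the kept loci, 5442 reached 10 RPKM in both libraries, 1445 in Jatropha alone and 1573 in Vernicia alone. A locus that passed the filter through 1 species alone came out higher there by construction.

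Per the labels, the Jatropha seeds were taken at 29 and 37 days after pollination and the Vernicia seeds at 90 and 135 days, at an early and at a fast stage of oil accumulation. All came from trees 3 years old, with the Jatropha trees on farmland in Guizhou and the Vernicia trees in Hunan, and no treatment is named. No label says which stage is library 7 and which is library 8, so the stages of the 2 libraries compared here are not known to match. Place of growth, stage and species cannot be told apart in this comparison. RNA of 3 seeds was mixed for each library, and with 1 library per species there is no replicate check. No p-value or SD can be given for any difference.

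Both trees belong to the spurge family and store oil and protein in a persistent endosperm. In such seeds the plastid makes fatty acids from sugar carbon, the endoplasmic reticulum joins them into triacylglycerol, and oleosins coat the oil droplets that bud off. Storage globulins and albumins fill protein bodies in the same cells, and LEA proteins (late embryogenesis abundant proteins) accumulate as a seed prepares to dry. Tung oil is known for eleostearic acid, a conjugated fatty acid that an FAD2-like enzyme makes in the seed.

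The tables give locus codes and no gene names. The names and roles below are general knowledge of the Arabidopsis genes with those codes. They were not checked against an annotation and are not established for the Jatropha or Vernicia gene behind a code. A code shared by both tables can stand for different genes of a family, and values of single members of gene families are uncertain for that reason. Contigs without a code held 41.9% of all RPKM in Jatropha library 7 and 20.8% in Vernicia library 7. No gene there can be named.

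How closely the levels of the 2 seeds were related across loci depended on the filter. Spearman's rho over the 8460 kept loci was 0.37, given as a description over loci that share 2 libraries. It was 0.50 over the 5442 loci at 10 RPKM or more in both, 0.59 with no filter and 0.021 with a filter of 50 RPKM in either library. Of the 100 most abundant kept loci of each seed, 32 were shared, and of the 1000 most abundant, 505. The 20 most abundant loci held 13.3% of the RPKM in coded contigs in Jatropha and 12.8% in Vernicia.

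Differences are given as log2 of the ratio of Jatropha to Vernicia RPKM plus 1, after scaling by the median ratio of the 2 libraries, 0.949. Jatropha was divided and Vernicia multiplied by the square root of that ratio before 1 was added. The 2 tables were normalized separately, and this scaling sets the typical locus to no difference. The scale understates the difference of low loci. Where no species is named beside a pair of RPKM values, the Jatropha value comes first. The middle part of the loci, from the lower to the upper quartile, lay between -0.99 and 0.99, and 4258 loci (50.3%) were less than 2-fold apart. At least 4-fold higher in Jatropha were 895 loci, or 10.6% of those kept, and at least 4-fold lower were 794, or 9.39%. Among the loci at 10 RPKM or more in both libraries, 326 were higher and 251 lower by that much. Without scaling, 841 were higher and 840 lower. With equal totals over all contigs the median over loci moved from -0.03 to -0.77, and of the loci 4-fold apart 22.4% were higher in Jatropha, against 53.0% with median-ratio scaling.

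**Figure D1:**
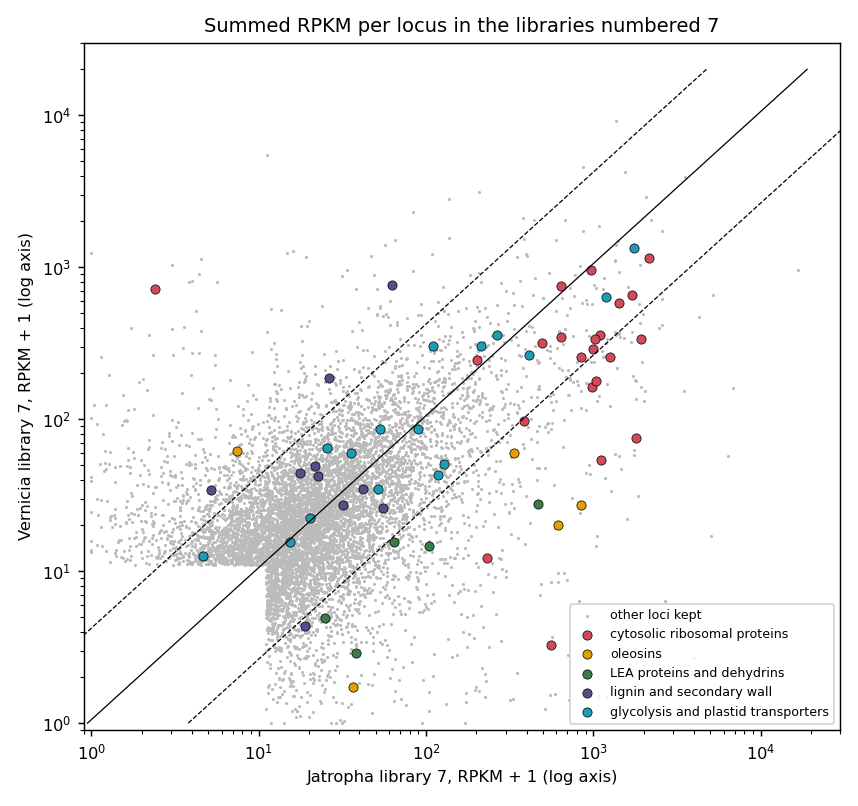
RPKM plus 1 of each kept locus in Jatropha library 7 (horizontal, log axis) and Vernicia library 7 (vertical, log axis), 1 point per locus. The solid line marks the median ratio and the dashed lines about 4-fold to either side. Most ribosomal protein loci, 4 of 5 oleosin loci and all 5 kept LEA loci lie to the right of the solid line, and the glycolysis loci lie between the dashed lines.

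What the Jatropha seed expressed most were a protease inhibitor and parts of the ribosome. The locus at the top was CYS5 (AT5G47550), a phytocystatin that inhibits cysteine proteases, at 16729 RPKM in Jatropha and 953 in Vernicia, where it ranked 46. It was 18.5-fold higher in Jatropha. In the libraries numbered 8 CYS5 went the other way, at 284 RPKM in Jatropha and 1089 in Vernicia. Of the 20 most abundant Jatropha loci, 7 were cytosolic ribosomal proteins, against 1 of the 20 most abundant in Vernicia. RPL36a (AT4G14320), a protein of the large subunit, followed CYS5 at 6838 RPKM, against 159 in Vernicia. RPS7B (AT3G02560), of the small subunit, stood at 4287 RPKM against 466. RPS30 (AT5G56670) stood at 3504 RPKM against 151.

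Metal-binding, secreted and stress-linked proteins followed in Jatropha. The metallothionein locus MT2A (AT3G09390) was at 6395 RPKM in Jatropha and 55.8 in Vernicia, a 119-fold difference. AT3G24060, a secreted protein of the S1 self-incompatibility family, was at 5201 RPKM against 656. AT4G30880, a small cysteine-rich protein of the lipid transfer and albumin superfamily, was at 5085 RPKM against 15.96. These 3 were high in Jatropha by different margins, and their Vernicia ranks ran from 82 to 5750.

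The dehydrin ERD14 (AT1G76180), a protein linked to drought and cold tolerance in Arabidopsis, was at 4815 RPKM in Jatropha and is a code of the Jatropha table alone. AT1G54870, an oxidoreductase of the short-chain dehydrogenase family, was at 3992 RPKM against 1.67. The Kunitz-type protease inhibitor AT1G17860 was at 2674 RPKM against 5.32. AHP4 (AT3G16360), of the family that relays cytokinin signals, was at 2148 RPKM against 3.07. So 13 of the 18 kept loci in the Jatropha top 20 were at least 4-fold higher there, and none was at least 4-fold lower.

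What the Vernicia seed expressed most was a different set. At its head stood ATMG00030, an open reading frame of the mitochondrial genome whose code is in the Vernicia table alone, at 11793 RPKM. Next was ATJ3 (AT3G44110), a cochaperone of the DnaJ type, at 9191 RPKM in Vernicia against 1373 in Jatropha. PSK3 (AT3G44735), a precursor of the growth-promoting peptide phytosulfokine, stood at 5457 RPKM in Vernicia against 10.2. The other phytosulfokine codes did not fill the gap, since the family summed to 5504 RPKM in Vernicia and 10.8 in Jatropha.

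Metal-binding, defence and dormancy-linked loci followed in Vernicia. The metallothionein MT3 (AT3G15353) was at 4540 RPKM in Vernicia against 871, so that the species differed in which metallothionein code was the more abundant. PDF2.2 (AT2G02100), a small antimicrobial defensin, was at 4207 RPKM in Vernicia against 1536, which is under 4-fold. DRM1 (AT1G28330), a transcript associated with dormant buds, was at 3101 RPKM in Vernicia against 208. The purple acid phosphatase PAP3 (AT1G14700) was at 2799 RPKM in Vernicia against 137.

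Among the other Vernicia leaders, GSTF9 (AT2G30860), a glutathione S-transferase, was at 2316 RPKM in Vernicia against 82.1. RD19 (AT4G39090), a papain-like cysteine protease, was at 2111 RPKM in Vernicia against 377. The ribosome biogenesis factor SMO4 (AT2G40430) was at 1549 RPKM in Vernicia against 136. Of the 19 kept loci in the Vernicia top 20, 9 were at least 4-fold higher in Vernicia and none at least 4-fold lower. The 4 loci among the 20 most abundant kept loci of both seeds were general ones. TCTP (AT3G16640), a growth-related protein, was at 3515 RPKM in Jatropha and 3928 in Vernicia. Calmodulin CAM7 (AT3G43810), a calcium sensor, was at 2210 and 2036 RPKM. The others were RPL19B (AT3G16780) and the peroxidase PRX42 (AT4G21960).

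The loci farthest apart were mostly codes near the bottom of one table. In 14 of the 15 with the largest Jatropha excess the Vernicia value was under 10 RPKM, and in 14 of the 15 with the largest Vernicia excess the Jatropha value was. On the Jatropha side, AT1G54870 led with a log2 difference of 10.61. AT1G48750, of the lipid transfer superfamily, was at 1202 RPKM against 0.48. AT5G46940, of the family of invertase and pectin methylesterase inhibitors, was at 1598 RPKM against 1.13. The germin-like protein AT3G05950, a secreted cupin, was at 718 RPKM against 0.41. Loci of that side thus included 3 secreted or wall-linked protein families.

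Other loci on the Jatropha side were SPH1 (AT4G16295), another S1-type secreted protein, at 1515 RPKM against 4.38, and the subtilisin-like protease AT5G67090 at 707 RPKM against 1.81. Histone H2B (AT2G28720) was at 330 RPKM against 0.45. AT4G14270 and AT5G65207, given here by code alone, were at 1085 RPKM against 0.51 and at 548 RPKM against 0.52.

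On the Vernicia side, the chloroplast locus ndhB (ATCG01250), a subunit of the NDH complex, was at 1242 RPKM and listed at 0 in Jatropha. GSTU17 (AT1G10370), a glutathione S-transferase, was at 1130 RPKM in Vernicia against 3.52. NPF4.6 (AT1G69850), a carrier of nitrate and abscisic acid, was at 397 RPKM in Vernicia against 0.72. GDU3 (AT5G57685), of a family linked to amino acid export, was at 812 RPKM in Vernicia against 2.99. The proton pump AHA4 (AT3G47950), which powers such carriers, was at 194 RPKM in Vernicia against 0.28.

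Enzymes of specialised metabolism were also among these Vernicia loci. CHIL (AT5G05270), which aids chalcone formation in flavonoid synthesis, was at 354.7 RPKM in Vernicia against 1.2. The cytochrome P450 CYP71B10 (AT5G57260) was at 254 RPKM in Vernicia against 0.14. PRR1 (AT1G32100), a pinoresinol reductase of lignan synthesis, was at 122 RPKM in Vernicia against 0.03. The zinc finger locus AT2G28710 was at 801 RPKM in Vernicia against 4.65. AT1G26320, at 898 RPKM in Vernicia against 3.38, and AT3G25400, at 391 RPKM in Vernicia against 2.02, complete the 15, with PSK3 and with RPL5A, PAB8 and PIP1;4.

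Several of these extreme differences fell under 4-fold when the paralogous codes of a family were summed. RPL5A (AT3G25520) was at 721 RPKM in Vernicia and 1.4 in Jatropha, while its sister locus RPL5B (AT5G39740) was at 53.0 and 1105 RPKM. Summed, RPL5 was at 1106 RPKM in Jatropha and 774 in Vernicia, 1.51-fold apart. COX5C (AT5G61310), a subunit of cytochrome c oxidase, was at 592 RPKM against 0.55, but with AT2G47380 the family summed to 592 and 335 RPKM. The poly(A)-binding protein PAB8 (AT1G49760) was at 2.83 RPKM in Jatropha and 802 in Vernicia. Its family summed to 349 and 858 RPKM.

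The aquaporin PIP1;4 (AT4G00430) was at 2.02 RPKM in Jatropha and 1032 in Vernicia, and the PIP1 family at 514 and 1105 RPKM. For these 4 families the sums lay 1.51-fold, 1.86-fold, 2.33-fold and 2.04-fold apart. Other differences were smaller in the sum but stayed past 4-fold. NAP1;3 (AT5G56950), a nucleosome assembly protein, was at 515 RPKM in Jatropha and 0.23 in Vernicia, and its family at 551 and 76.7 RPKM. Ribosomal protein L21 (AT1G09690) was at 1804 RPKM against 2.0, and its family at 1804 against 228 RPKM. The AHP family was 11.7-fold higher in Jatropha, and ATJ2 with ATJ3 were 6.33-fold higher in Vernicia. These sums were formed after the single values had been seen.

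**Figure D2:**
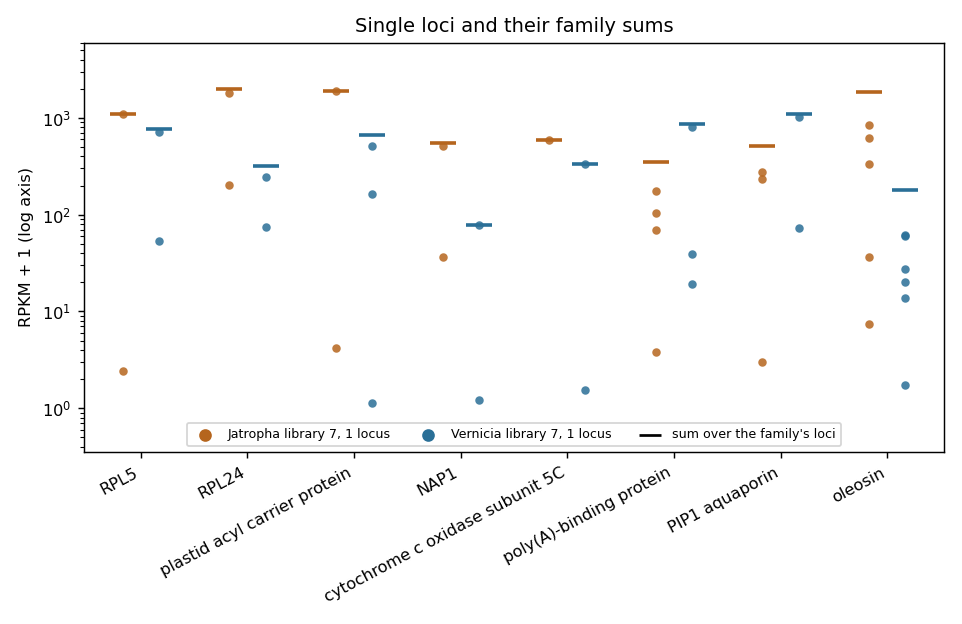
RPKM plus 1 (vertical, log axis) of single loci (points) and of the sum over each family's loci (bars) in Jatropha library 7 and Vernicia library 7, for 8 protein families. In RPL5 and the plastid acyl carrier proteins the most abundant code differs between the species and the sums lie closer together than the single codes, and in NAP1 and the oleosins the sums stay far apart.

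Most of the listed ribosomal proteins were higher in Jatropha in the libraries numbered 7. Of 22 listed loci that passed the filter, 20 of them in both libraries, 9 were at least 4-fold higher and 1 was at least 4-fold lower, RPL5A, against 10.6% and 9.39% of all kept loci. Their median log2 difference was 1.75, against -0.03 over all kept loci, and 0.97 with equal totals over all contigs. With paralogous codes summed into 18 proteins, 17 were above 0, 7 were at least 4-fold higher and none at least 4-fold lower. RPS5A (AT2G37270) was at 1935 RPKM against 333, and RPL24A (AT2G36620) at 1801 against 74.2. The exception below 0 was RPS4, at 640 RPKM in Jatropha and 843 in Vernicia. In sum the listed loci were at 21684 RPKM in Jatropha and 8486 in Vernicia. In the libraries numbered 8 these sums, which are not scaled, were 6395 and 8788 RPKM. The median over the 18 proteins was 1.69 in libraries 7 and 0.86 in libraries 8.

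Cell division loci were at low levels, and few of them were past 4-fold. Of 16 that passed the filter, 7 did so through Jatropha alone, which fixed their direction. Of the 8 at 10 RPKM or more in both libraries, 7 were above 0 and none was 4-fold apart. At least 4-fold higher was 1 of the 16, against 10.6% of all kept loci. That locus was CYCD3-1 (AT4G34160), a D-type cyclin that drives entry into the cell cycle, at 30.4 RPKM against 2.86. Histone H3.1 (AT5G65360), laid down during DNA replication, was at 258 RPKM against 68.2. KNOLLE (AT1G08560), the syntaxin that fuses vesicles into the new cell plate, was at 42.8 RPKM against 17.5. CDKA1 (AT3G48750), the main cell cycle kinase, went the other way at 54.3 RPKM against 80.5. The median over those 8 was 1.24.

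Oil droplet coats were the clearest part of the oil programme. Of 5 oleosin loci in both tables, 4 were at least 4-fold higher in Jatropha and 1 at least 4-fold lower, against 10.6% and 9.39% of all kept loci. The 3 that reached 10 RPKM in both libraries were all higher. OLEO2 (AT5G40420) was at 615 RPKM in Jatropha and 19.2 in Vernicia. AT3G18570 was at 844 RPKM against 26.2, and OLEO1 (AT4G25140) at 335 against 59.0. The lower locus, AT3G01570, was at 6.39 RPKM in Jatropha and 60.8 in Vernicia. Summed over codes, oleosins were at 1836 RPKM against 179, 10.8-fold apart.

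Other lipid droplet proteins did not share that direction. None of 5 kept loci was 4-fold apart, and LDAP1 (AT1G67360), a droplet-associated protein also found outside seeds, was at 106 RPKM in Jatropha and 241 in Vernicia. SEIPIN1 (AT5G16460), which helps droplets bud, was at 47.6 RPKM against 20.6. The caleosin codes differed, CLO1 (AT4G26740) at 96.1 RPKM in the Jatropha table alone and CLO2 (AT5G55240) at 43.1 RPKM in the Vernicia table alone.

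Most loci of plastid fatty acid synthesis were higher in Jatropha, few of them past 4-fold. Of 8 kept loci of the synthase, 6 were above 0, 1 was at least 4-fold higher and 1 at least 4-fold lower, with a median of 1.15, or 0.39 with equal totals over all contigs. KAS2 (AT1G74960), which lengthens palmitoyl chains, was at 75.1 RPKM against 22.4. The enoyl reductase MOD1 (AT2G05990) was at 78.5 RPKM against 24.5. KASIII (AT1G62640), which starts the chain, was at 11.9 RPKM in Jatropha and 28.6 in Vernicia.

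The acyl carrier protein, to which the growing chain is bound, was read at a different code in each species. ACP2 (AT1G54580) was at 1914 RPKM in Jatropha and 161 in Vernicia, and ACP4 (AT4G25050) at 3.21 and 510. Their sum with ACP5 was 3.01-fold higher in Jatropha. Of the carboxylase that makes malonyl-CoA, BCCP1 (AT5G16390), the biotin carrier, was at 163 RPKM against 31.5 and was the 1 of 5 kept loci past 4-fold. PDH-E1alpha (AT1G01090), of the plastid pyruvate dehydrogenase that supplies acetyl-CoA, was at 28.8 RPKM in Jatropha and 241 in Vernicia. The other 4 subunits of that complex lay between 0.05 and 1.45.

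Desaturases and triacylglycerol assembly held single loci far higher in Vernicia. FAD2 (AT3G12120), the oleate desaturase code, was at 302 RPKM in Jatropha and 440 in Vernicia, 1.38-fold apart. These sums hold 6 contigs in Jatropha, the highest at 290 RPKM, and 3 in Vernicia, the highest at 225. Which of them are oleate desaturases and which other FAD2-like enzymes is not known. FAD8 (AT5G05580), a plastid omega-3 desaturase, was at 4.48 RPKM against 74.9. It passed the filter through Vernicia alone, which fixed its direction. With FAD7, which is in the Jatropha table alone, the plastid omega-3 desaturases were 2.92-fold apart.

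Of 11 kept triacylglycerol assembly loci, 1 was at least 4-fold lower in Jatropha, a share close to the 9.39% of all kept loci. The median was -0.89, and 3 of the 11 had passed the filter through Vernicia alone. Of the 7 at 10 RPKM or more in both libraries, 6 were below 0. DGAT3 (AT1G48300), a soluble acyltransferase, was at 23.57 RPKM in Jatropha and 268 in Vernicia. DGAT2 (AT3G51520), linked to tung oil assembly in work on Vernicia, was at 12.8 RPKM against 16.2. ROD1 (AT3G15820), which exchanges phosphatidylcholine and diacylglycerol, was the exception past 4-fold, at 25.04 RPKM against 2.52. It passed the filter through Jatropha alone, which fixed its direction. Among 12 kept loci for acyl export and activation, 2 were at least 4-fold lower in Jatropha, against 9.39% of all kept loci. Both passed the filter through Vernicia alone, and none of the 8 loci at 10 RPKM or more in both libraries was 4-fold apart. LACS8 (AT2G04350), an acyl-CoA synthetase, was at 2.44 RPKM against 43.9. ACBP1 (AT5G53470), an acyl-CoA-binding protein, was at 0.94 RPKM against 24.9.

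**Figure D3:**
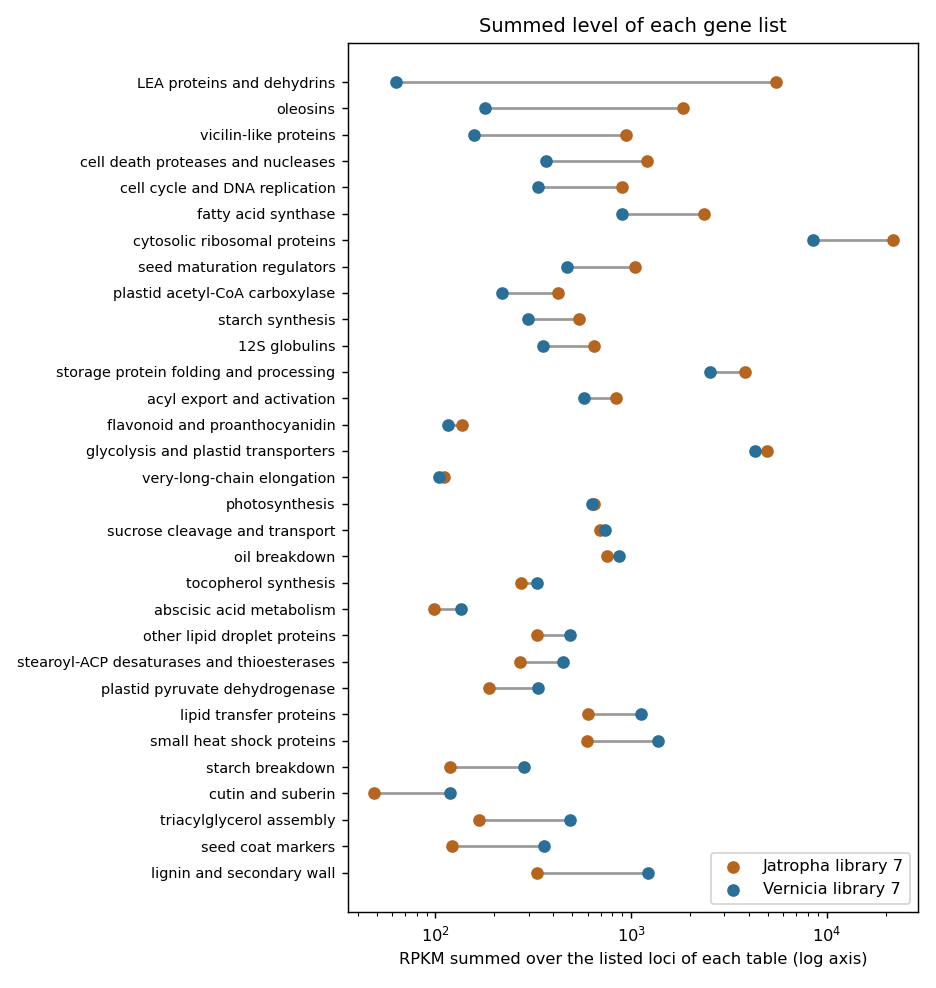
RPKM summed over the listed loci of each table (horizontal, log axis) for each gene list with at least 3 kept loci, in Jatropha library 7 and Vernicia library 7, ordered by the scaled difference. LEA proteins stand farthest apart, at 5524 RPKM in Jatropha and 62.6 in Vernicia, and lignin genes lie at the other end, at 331 and 1215 RPKM.

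Storage proteins were at modest levels in both libraries numbered 7. The 12S globulin codes, legumin-type storage proteins, summed to 647 RPKM in Jatropha and 355 in Vernicia. In the libraries numbered 8 the same sums were 174213 and 69978 RPKM. CRA1 (AT5G44120) was at 447 RPKM against 303, and PAP85 (AT3G22640), a vicilin-like protein, at 116 against 110. Of the other vicilin-like cupins, AT4G36700 was at 350 RPKM in Jatropha and 1.13 in Vernicia, and AT2G28490 at 460.5 RPKM against 38.5.

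The 2S albumins were read at SESA3 (AT4G27160), at 25.2 RPKM against 28.8, and in Jatropha at SESA1 (AT4G27140), at 240 RPKM. Of 9 kept loci for folding and processing of storage proteins, 6 were below 0, and the median was -0.68. VSR1 (AT3G52850), a vacuolar sorting receptor, was at 49.0 RPKM against 113, and the processing enzyme betaVPE (AT1G62710) at 239 against 428. At least 4-fold higher in Jatropha were 2 of the 9, against 10.6% of all kept loci, and none was at least 4-fold lower. PDIL1-1 (AT1G21750), a protein disulfide isomerase, was at 756 RPKM against 175. BIP1 (AT5G28540), a chaperone of the endoplasmic reticulum, was at 459 RPKM against 69.9, but with BIP2 the family was 2.03-fold apart.

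LEA proteins had the largest summed difference among the lists. The 5 loci that passed the filter were at least 4-fold higher in Jatropha, against 10.6% of all kept loci. For EM1 and EM6 (AT2G40170) the direction was fixed by the filter, which they passed through Jatropha alone. The other 3, at 10 RPKM or more in both libraries, had a median of 2.91. ECP63 (AT2G36640) was at 463 RPKM against 26.6, and EM1 (AT3G51810) at 37.4 against 1.89. The listed loci summed to 5524 RPKM in Jatropha and 62.6 in Vernicia, and without the highest locus of each, ERD14 in Jatropha, to 709 and 36.1 RPKM. The list of small heat shock proteins, which also holds HSP101, did not follow, and 6 of its 9 kept loci were below 0. HSP101 (AT1G74310), a chaperone that dissolves protein aggregates, was at 21.7 RPKM against 123.

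Of 10 kept regulators of seed maturation, 4 were at least 4-fold higher in Jatropha and 1 was lower by that much, against 10.6% and 9.39% of all kept loci. Of these 10, 3 passed the filter through Jatropha alone and 1 through Vernicia alone. Among the other 6, 5 were above 0 and 2 at least 4-fold higher. L1L (AT5G47670), a subunit of the NF-Y transcription factor related to LEC1, was at 535 RPKM against 93.6. The LEC1 code is in the Vernicia table alone, and together the pair was 3.32-fold apart. BZIP67 (AT3G44460), an activator of seed storage genes, was at 153 RPKM against 13.2. LEC2 (AT1G28300) was at 21.2 RPKM against 3.18, and ABI5 (AT2G36270), which acts in abscisic acid signalling, at 41.9 against 9.38.

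WRI1 (AT3G54320), the activator of fatty acid synthesis genes, was at 124 RPKM against 32.2, just inside 4-fold. Its relative WRI4 (AT1G79700), known for cutin and wax control in Arabidopsis, went the other way, at 0.31 RPKM against 22.01. VAL1 (AT2G30470), a repressor of the maturation programme, was at 10.9 RPKM against 30.8. In the libraries numbered 8, WRI1 was at 47.9 RPKM in Jatropha and 48.7 in Vernicia. There L1L was at 57.0 RPKM against 268 and BZIP67 at 84.0 against 196, while ABI5 stayed higher in Jatropha at 68.8 against 8.61. Over the 8 regulators kept in both pairs of libraries the median in libraries 8 was -0.18. In libraries 7 it was 1.69 over the 10 kept.

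Loci of sucrose cleavage and transport went both ways. Of the 7 at 10 RPKM or more in both libraries, 3 were above 0 and 4 below. CWINV2 (AT3G52600), a cell wall invertase that splits sucrose outside the cell, was at 228 RPKM in Jatropha and 0.89 in Vernicia. It passed the filter through Jatropha alone, which fixed its direction. CWINV1 (AT3G13790), another cell wall invertase, was at 18.6 RPKM against 55.2. SWEET15 (AT5G13170), a sucrose exporter of the seed coat and endosperm in Arabidopsis, was at 17.3 RPKM against 264. SUS2 (AT5G49190), a sucrose synthase of maturing seeds, was at 99.6 RPKM against 105. Summed over codes, sucrose synthase was at 303 RPKM in Jatropha and 309 in Vernicia.

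Glycolysis was close in both seeds. None of 16 kept loci was 4-fold apart, and the median was 0.00, or -0.74 with equal totals over all contigs. GAPC1 (AT3G04120), cytosolic glyceraldehyde phosphate dehydrogenase, was at 1745 RPKM against 1337. The plastid pyruvate kinase PKP-alpha (AT3G22960) was at 117 RPKM against 42.1. Among starch loci, the most apart was SS4 (AT4G18240), a starch synthase, at 390 RPKM in Jatropha and 14.2 in Vernicia. APS1 (AT5G48300), the small subunit of ADP-glucose pyrophosphorylase, was at 11.8 RPKM against 59.8. BAM1 (AT3G23920), a beta-amylase, was at 7.66 RPKM against 97.1.

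Wall and lignin loci went both ways, with single loci far higher in Vernicia. Of 10 kept, 4 were above 0, and 3 were past 4-fold towards Vernicia and 1 towards Jatropha, against 9.39% and 10.6% of all kept loci, with a median of -0.97, but -0.02 with no filter on low values. CAD4 (AT3G19450), which makes the alcohols that form lignin, was at 61.9 RPKM in Jatropha and 760 in Vernicia. C3H1 (AT2G40890), a hydroxylase of the same path, was at 25.3 RPKM against 187. PAL1 and PAL2, the entry enzymes, went opposite ways, but each passed the filter through 1 species alone, which fixed its direction. Their family was 1.21-fold apart. Of the 8 loci at 10 RPKM or more in both libraries, 2 were at least 4-fold lower in Jatropha and none at least 4-fold higher.

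The suberin feruloyl transferase ASFT (AT5G41040) was at 0.21 RPKM in Jatropha and 50.4 in Vernicia. The anchored lipid transfer protein LTPG1 (AT1G27950), which carries wax precursors, was at 59.8 RPKM against 598. TT8 (AT4G09820), a regulator of seed coat pigment, was at 0.44 RPKM against 14.6. ASFT and TT8 passed the filter through Vernicia alone, which fixed their direction. None of the 4 kept cutin and suberin loci reached 10 RPKM in both libraries. Flavonoid synthesis as a list had no common direction, with CHS (AT5G13930), its first enzyme, at 40.4 RPKM against 13.8.

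Of 6 kept loci for proteases and nucleases of dying cells, 1 was at least 4-fold higher in Jatropha and 3 at least 4-fold lower. Over all kept loci the shares were 10.6% and 9.39%. The 3 lower ones passed the filter through Vernicia alone, which fixed their direction. Of the 3 at 10 RPKM or more in both libraries, 2 were above 0 and none was at least 4-fold lower. CEP1 (AT5G50260), a papain-type protease of programmed cell death, was at 1073 RPKM in Jatropha and 142 in Vernicia. The nuclease BFN1 (AT1G11190) was at 1.59 RPKM against 63.2. RNS3 (AT1G26820), a ribonuclease, was at 4.47 RPKM against 22.8, and SAG12 (AT5G45890), a protease of senescence, at 2.47 against 19.1.

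In the smaller lists, NCED6 (AT3G24220), an enzyme of abscisic acid synthesis known from the Arabidopsis endosperm, was at 0.23 RPKM in Jatropha and 45.6 in Vernicia. VTE4 (AT1G64970), which methylates tocopherols, was at 0.57 RPKM against 96.2, while VTE3 (AT3G63410), an earlier methyltransferase, was at 84.3 against 17.9. NCED6 and VTE4 passed the filter through Vernicia alone, which fixed their direction. With 10 RPKM required in both libraries the abscisic acid median went from -0.84 to 0.09 and the tocopherol median from -0.67 to 0.31. None of 13 kept oil breakdown loci was 4-fold apart. KAT2 (AT2G33150), the thiolase of beta-oxidation, was at 217 RPKM against 111.

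**Figure D4:**
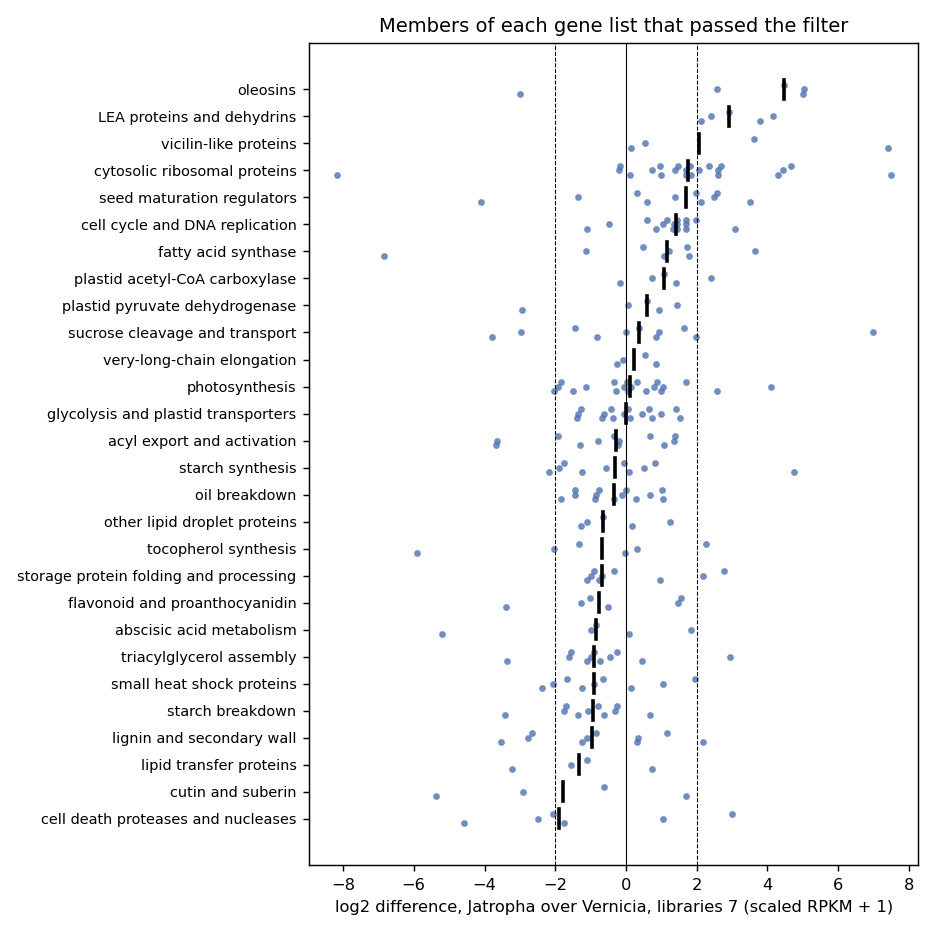
Log2 difference of Jatropha over Vernicia library 7 (horizontal, on scaled RPKM plus 1) for each member that passed the filter (points) with the list's median (black bar), for lists with at least 4 such members. Dashed lines mark 4-fold. The LEA proteins and 4 of 5 oleosins lie to the right of 0, most lists straddle 0, and single members lie far from their list's median on both sides.

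The labels give the source as endosperm and the tissue as seeds, and the marker lists do not settle this. Of 8 endosperm markers, 4 were in a table, and they summed to 48.9 RPKM in Jatropha and 30.8 in Vernicia. ZOU (AT1G49770), which breaks down endosperm around the embryo, was at 37.9 RPKM against 4.49, and AGL62 (AT5G60440), of the early endosperm, at 6.77 against 23.7. Of 5 embryo markers, 2 were in a table, and the meristem gene STM (AT1G62360) was at 4.62 RPKM against 1.35.

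All 8 seed coat markers were in a table, and they summed to 121 RPKM in Jatropha and 360 in Vernicia. TT16 (AT5G23260), a regulator of the inner seed coat, was at 91.5 RPKM against 301, and BAN (AT1G61720), a proanthocyanidin enzyme, at 18.4 against 27.9. No marker present in a library's table was listed at 0. Without the highest locus of each, the sums were 29.8 and 58.6 RPKM, and TT2 (AT5G35550) at 2.16 against 2.07 and TT10 (AT5G48100) at 3.87 against 3.67 were nearly level. The summed seed coat level was higher in Vernicia, as were CAD4, C3H1, ASFT and LTPG1. Its part in those differences was not tested. In such bulk libraries fewer cells of a type and less RNA per cell cannot be told apart. Photosynthesis loci summed to 644 RPKM in Jatropha and 628 in Vernicia. PSBO2 (AT3G50820), of the oxygen-evolving complex, was the highest in Jatropha at 113 RPKM against 56.8, and PSBP1 (AT1G06680), of the same complex, was the highest in Vernicia at 19.8 against 88.0. PSAN (AT5G64040), of photosystem I, was farthest apart at 32.5 RPKM against 1.03.

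The libraries numbered 8 come from other stages and are no replicates. They show how far the differences are tied to the libraries numbered 7. Of 6635 loci kept there by the same rule, 625 (9.42%) were at least 4-fold higher in Jatropha and 999 (15.1%) at least 4-fold lower. Among 6270 loci kept in both pairs, 608 were higher in Jatropha in libraries 7 and 499 in libraries 8. The 284 loci higher in both made up 46.7% of the first list and 56.9% of the second. Of 660 lower loci in libraries 7 and 927 in libraries 8, 369 were shared, 55.9% and 39.8% of the lists.

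Of the 15 loci with the largest Jatropha excess, 12 were at least 4-fold higher in Jatropha in libraries 8 too, and of the 15 with the largest Vernicia excess, 14 kept their direction by that much. SPH1 was an exception, at 10.0 RPKM in Jatropha library 8 and 8.77 in Vernicia library 8. PRR1 was another, at 4.6 and 27 RPKM. AT5G46940 and AT3G05950 were below 10 RPKM in both libraries 8. PSK3 was farther apart there, at 5.70 RPKM in Jatropha and 20182 in Vernicia. AHP4 kept its direction as a single code, at 39.3 and 3.01 RPKM in libraries 8. The AHP family did not, at 64.1 RPKM in Jatropha and 549 in Vernicia.

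**Figure D5:**
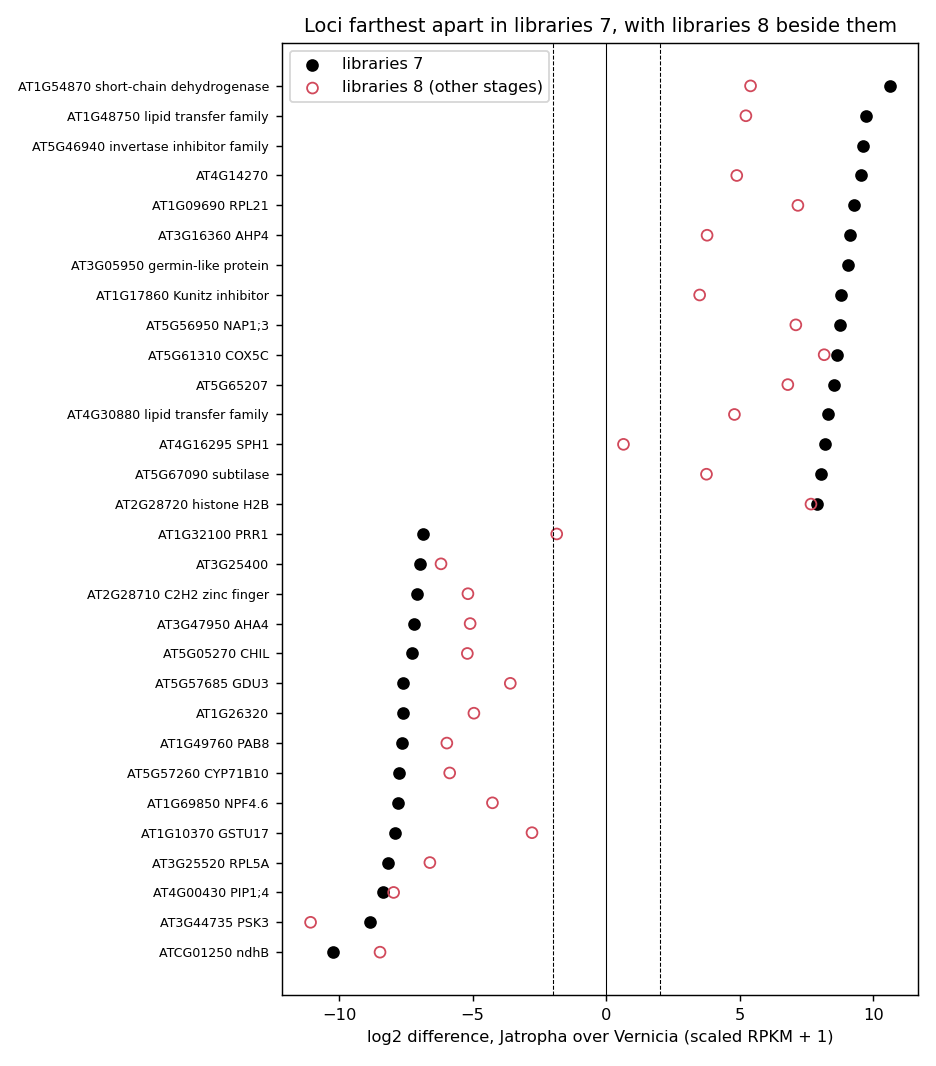
Log2 difference of Jatropha over Vernicia (horizontal, on scaled RPKM plus 1) for the 15 loci with the largest excess in each species in libraries 7 (filled points), with libraries 8 beside them (open points, absent for 2 loci under 10 RPKM there). Except for SPH1 and PRR1, the open points shown lie past 4-fold on the same side as the filled ones.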

How the data were processed

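Per the labels' protocols, polyadenylated RNA was made into directional libraries. Each species has its own deposited table of RPKM values per assembled contig and, for 49.8% of Jatropha and 43.6% of Vernicia contigs, a TAIR10 locus code. The tables' names give the unit. The submitters' processing notes name Bowtie and edgeR without versions. The assembler and the way codes were assigned are not stated in these sources. RPKM of contigs sharing a code were summed. The median ratio was taken over loci with at least 1 RPKM in both libraries. Read totals are not in the tables used, so no counting error can be given.

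The members and the 36 lists (497 loci, of which 398 were in a table and 265 were kept) were chosen with earlier results of these data known. Loci were named by rank (20 most abundant per library, 15 farthest apart per direction) and within lists as the most abundant or the farthest past 4-fold, of which not all are described. Further list members were named by role after their values were seen. Alternatives were other pseudocounts, filters, scalings, contig rules and thresholds. A filter of 10 RPKM in both libraries and sums over paralogous codes were added after the data were seen. The steps ran in Python 3.11.15 with NumPy 2.4.6, SciPy 1.17.1 and pandas 2.3.3, and were tested on simulated data. Sequences were not used here.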

Additional observations from a re-analysis of the deposited data

Results flagged for a closer look

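Among loci kept in both pairs of libraries, 40 were at least 4-fold higher in Jatropha in libraries 7 and at least 4-fold lower in libraries 8. Another 11 were lower in Jatropha in libraries 7 and higher in libraries 8 by that much. They drew attention because the species difference changed direction between the pairs, and the change itself was not tested, since each pair holds 1 library per species. AT3G24060, the S1-type secreted protein, stood at 5201 RPKM in Jatropha and 656 in Vernicia in libraries 7, and at 4.35 and 501 in libraries 8. CYP83B1 (AT4G31500), a P450 of glucosinolate synthesis in Arabidopsis, stood at 2.52 and 28.3 RPKM in libraries 7, and at 648 and 58.4 in libraries 8.

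Loci whose code is in 1 table alone lie outside the comparison. At 10 RPKM or more in library 7, 664 such loci were in the Jatropha table and 564 in the Vernicia table. They include the abundant ERD14 and ATMG00030. They also include codes with a sister code in the other table, such as AT3G13580 (ribosomal protein L7) at 1794 RPKM in Jatropha and AT2G01250 of the same family at 501 RPKM in Vernicia.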

How the results depend on the processing

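No paired analysis was possible because only 1 library per species enters the comparison and nothing was tested. The share of 4-fold loci that were higher in Jatropha was 53.0% and passed to the other side of an even split at 22.4% with equal totals over all contigs, 46.2% with equal totals outside the top 100 loci and 49.95% at 2-fold. The numbers of loci higher and lower in Jatropha, 895 and 794, became 582 and 497 when 5 RPKM were added, 487 and 397 with a filter of 50 RPKM, 481 and 1666 with equal totals over all contigs, 404 and 342 for loci of 1 contig in each table, 2099 and 2103 at 2-fold, 381 and 336 at 8-fold, and 326 and 251 with 10 RPKM required in both libraries. Fewer loci were counted in the filtered sets by construction. Spearman's rank correlation of the levels, 0.37, became 0.59 with no filter, 0.021 with a filter of 50 RPKM, 0.30 for loci of 1 contig and 0.50 with 10 RPKM in both. All 280 alternative values of the 30 loci farthest apart kept their direction and 4-fold size. These loci were picked for the largest differences in the same values. The outcome could hardly have been different and says nothing about the other loci. Of 286 alternative list medians, 23 changed sign, in 12 lists, 8 of them with 10 RPKM required in both libraries, where loci low in 1 species drop out. There cell death proteases and nucleases went from -1.91 to 1.03 and flavonoid synthesis from -0.75 to 1.48. With a filter of 50 RPKM, acyl export and activation went from -0.27 to 1.35 and photosynthesis from 0.11 to -1.50. Read depth is unknown, so values near 0 carry an error that cannot be given. With equal totals over all contigs the medians of plastid pyruvate dehydrogenase (-0.16), sucrose cleavage and transport (-0.39), photosynthesis (-0.65) and very-long-chain elongation (-0.53) fell below 0. The cause of the other shifts was not tested.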
